A study of Mus musculus with 8 samples.

Results

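Ly6c2, Ly6c1, Ly6g, Ly6a and Ly6e encode small surface proteins of the Ly6 family, and their transcripts were followed here in cultured mouse blood eosinophils. The 5 genes were taken by symbol from a table of 15917 genes; all 5 had a row and all 5 passed the filter on low counts. The set was selected on measured values, the higher counts of Ly6c2 and Ly6g in eosinophils given interferon-gamma and TNF-alpha than in cells without cytokine. That difference is therefore given below as a description without a test. Eosinophils came from the blood of IL-5 transgenic NJ.1638 mice, on a C57BL/6 strain label, while the genotype label reads WT; T and B cells were depleted with CD90 and B220 beads, and purity was checked on stained cytospins. Every group was cultured for 18 h. In the first of 2 experiments, cells without added cytokine (CN) were set beside cells given 15 ng/mL of IFN-gamma and TNF-alpha (E1). In the second, cells given IL-5 at 10 ng/mL (E0) were set beside cells that got GM-CSF and IL-4 as well, at the dose of IL-5, and IL-33 at 30 ng/mL (E2). Each group had 2 libraries.

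Ly6 proteins carry 1 LU domain, a compact fold held by disulfide bonds, and most sit on the outer leaflet of the plasma membrane through a glycosylphosphatidylinositol (GPI) anchor. In mice, Ly6C, the product of Ly6c1 and Ly6c2, is used to divide blood monocytes into subsets, and Ly6G is the usual surface marker of neutrophils. Ly6A, also called Sca-1, marks blood stem cells and is made by many activated lymphocytes, and Ly6E is broadly made; interferons are known inducers of several members of the family.

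The 5 genes lie in 1 cluster on mouse chromosome 15 (mm10). Ly6e (ENSMUSG00000022587) spans chr15:74955051-74959905 on the plus strand. Ly6a (ENSMUSG00000075602) spans chr15:74994877-74998031 on the minus strand. Ly6c1 (ENSMUSG00000079018) spans chr15:75044018-75048830 on the minus strand. Ly6c2 (ENSMUSG00000022584) spans chr15:75108158-75111970 on the minus strand. Ly6g (ENSMUSG00000022582) spans chr15:75155240-75159126 on the plus strand. Coding sequences of Ly6c2 and Ly6c1 were 97.7% identical, at 384 of 393 aligned bases. Ly6a was 83.5% and Ly6g 79.9% identical to Ly6c2, whereas Ly6e was 56.1% to 58.3% identical to the other 4 members.

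Upstream sequences are shown for Ly6c2, Ly6c1 and Ly6g, the only members with a promoter sequence available. Each is the 250 bases before the most upstream RefSeq start (GRCm38.p6), written in the direction of transcription; capitals mark stretches of at least 10 bases present in all 3. The tables used here held promoters for these 3 of the 5 genes.
Ly6c2, chr15:75111972-75112221, minus strand: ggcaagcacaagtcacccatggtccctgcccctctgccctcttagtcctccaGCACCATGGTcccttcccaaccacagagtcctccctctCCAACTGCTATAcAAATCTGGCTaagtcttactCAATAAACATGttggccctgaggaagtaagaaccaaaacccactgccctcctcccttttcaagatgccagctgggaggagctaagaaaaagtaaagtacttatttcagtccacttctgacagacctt
Ly6c1, chr15:75048838-75049087, minus strand: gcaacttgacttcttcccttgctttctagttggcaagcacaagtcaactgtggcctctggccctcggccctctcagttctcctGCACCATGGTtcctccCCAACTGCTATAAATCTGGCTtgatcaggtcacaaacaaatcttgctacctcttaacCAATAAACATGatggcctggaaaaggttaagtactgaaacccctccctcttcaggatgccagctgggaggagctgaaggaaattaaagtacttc
Ly6g, chr15:75155011-75155260, plus strand: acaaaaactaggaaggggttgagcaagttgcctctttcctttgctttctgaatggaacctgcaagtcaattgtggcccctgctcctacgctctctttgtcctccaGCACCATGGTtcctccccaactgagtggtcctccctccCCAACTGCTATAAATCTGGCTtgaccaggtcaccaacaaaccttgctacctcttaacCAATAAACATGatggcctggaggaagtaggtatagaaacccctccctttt
Ly6c1 and Ly6g were 83.5% identical over 206 aligned bases, against 76.9% for Ly6c2 with Ly6g and 75.9% for Ly6c2 with Ly6c1. Capital stretches covered 43 bases in Ly6c2 and 42 bases in each of the other two. Windows of 300 bases, running 50 bases past each annotated start, were searched on both strands. The STAT dimer site TTCNNNGAA (GAS) was absent from all 6 windows of the 3 genes, where 8.3% of the 32851 mouse promoters in the table held it. Neither the core of the interferon-stimulated response element, held by 3.44% of promoters, nor the NF-kappaB consensus, held by 8.46%, was in these windows. Counted from the most upstream start, TATAAA was found at -143 in Ly6c1 and at -99 in Ly6g, and CCAAT at -95 in Ly6c1 and at -51 in Ly6g. Ly6c2 had neither. Of all promoters, 13.6% held TATAAA and 37.4% held CCAAT, and these 2 motifs, which overlap neither each other nor the other motifs, were searched for after the sequences had been seen. A missing match says only that these letters are not in the window.

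Gene counts summed to 60809057 to 95065752 per library, so 3 counts were worth 0.0316 to 0.0483 CPM (counts-per-million). CPM values were scaled by TMM, a correction for library composition. Ccr3, the eotaxin receptor of eosinophils, had means of 1254 to 2576 CPM across the groups, and Siglecf had 744 to 971 CPM. The granule genes Epx and Prg3 had lower means, of 11.55 to 65.9 CPM and 2.97 to 26.2 CPM. Ccr3, Epx and Prg3 were lowest in E2, and results for all 13 eosinophil markers are given below. In every group, replicate 1 carried transcripts of the Y-linked genes Ddx3y and Eif2s3y, and replicate 2 carried Xist, so the spread between replicates includes a difference of sex. The labels do not state whether replicates were separate animals or separate cultures. Since they differ in sex, the 2 libraries of a group cannot be cultures of the same animal. The p-values below measure only the spread between these samples. Scaled counts give a share of the RNA in a culture, and in such bulk samples a change in the number of expressing cells and a change in RNA per cell cannot be told apart.

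Transcripts of all 5 Ly6 genes were higher in E1 than in CN in both libraries. Both E1 libraries lay above both CN libraries for 26.5% of the 15913 genes tested and below them for 27.5%; since this contrast chose the members, nothing is read from their count. Across the table, 9.19% of genes were called higher in E1 and 8.08% lower, or 17.3% in either direction (edgeR, adjusted p below 0.05). The median log2 difference of the 5 members was 5.34, beside -0.01 over all genes tested. Since this contrast chose the members, nothing is read from that gap either.

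Ly6c2, 1 of the pair of genes that make Ly6C, stood at 92.8 and 105 CPM in the CN libraries and at 4214 and 3784 CPM in the E1 libraries. Both E1 values lay far above both CN values, with a ratio of 40.4-fold (5.34 on the log2 scale). Ranked by CPM, it was gene 12 in the first E1 library and gene 13 in the second, against ranks of 2360 and 2114 in CN. Ly6c1, the other Ly6C gene, stood at 3.74 and 4.77 CPM in CN and 249 and 176 CPM in E1. Its ratio was 50.03-fold, or 5.64 on the log2 scale, and the E1 libraries differed from each other more than they did for Ly6c2. Ly6g, the neutrophil marker, stood at 6.60 and 7.05 CPM in CN and 64.3 and 62.1 CPM in E1. The replicates lay close together in both groups, and the ratio was 9.26-fold (3.21 on the log2 scale).

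Ly6a stood at 0.769 and 0.481 CPM in CN, which were 73 and 40 counts. In E1 it stood at 55.9 and 44.0 CPM, a ratio of 79.1-fold and a log2 difference of 6.31, larger in ratio than that of any other member. Ly6e was already abundant in CN, at 450 and 417 CPM, and stood at 1729 and 1453 CPM in E1. Its ratio was 3.67-fold (1.88 on the log2 scale), the smallest of the 5. Summed over the members, Ly6 transcripts made up 554 and 535 CPM in the CN libraries and 6312 and 5519 CPM in the E1 libraries.

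**Figure D1:**
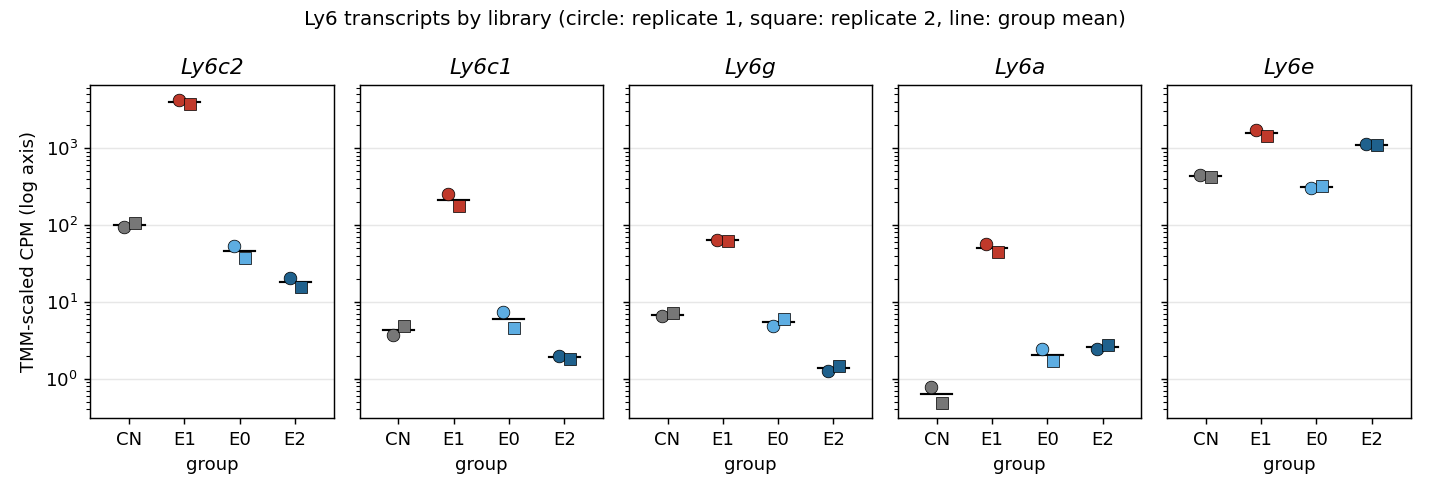
TMM-scaled CPM (log axis) of each Ly6 gene in the 8 libraries by group, with a circle for replicate 1, a square for replicate 2 and a line for the group mean. E1 is the highest group for every gene, and E2 is the lowest for Ly6c2, Ly6c1 and Ly6g but stands above CN for Ly6a and Ly6e.

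In the type 2 cytokine mix, the family split: Ly6c2, Ly6c1 and Ly6g fell, Ly6e rose, and Ly6a did not pass the test. This contrast, E2 against E0, was not used to choose the members. In edgeR's quasi-likelihood test with Benjamini-Hochberg adjustment over all 15913 genes, 4 of the 5 members were called, 1 higher and 3 lower. The background was high: 35.5% of all genes were called, 17% higher and 18.5% lower. The median log2 change of the members was -1.32, beside -0.02 over all genes tested. Both E2 libraries lay above both E0 libraries for 35.9% of all genes and below them for 37.2%.

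Ly6c2 stood at 53.0 and 37.5 CPM in E0 and at 20.6 and 15.5 CPM in E2. All E2 values were below all E0 values, and the level was 2.50-fold lower in E2 (log2 change -1.32 ± 0.19 SE, 95% interval -1.76 to -0.89, edgeR adjusted p = 0.00118). Ly6c1 stood at 7.45 and 4.50 CPM in E0 and 1.98 and 1.81 CPM in E2. The groups did not overlap, although the E0 libraries differed by more than the E2 libraries did, and the level was 3.12-fold lower (log2 change -1.64 ± 0.27 SE, 95% interval -2.27 to -1.02, edgeR adjusted p = 0.00244). Ly6g stood at 4.83 and 5.97 CPM in E0, from 300 and 500 counts, and at 1.27 and 1.47 CPM in E2, from 108 and 114 counts. Its fall of 3.96-fold was the largest among the members (log2 change -1.99 ± 0.13 SE, 95% interval -2.29 to -1.68, edgeR adjusted p = 2.75e-05). The intervals of these 3 falls overlap one another, and differences between them were not tested.

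Ly6a stood at 2.43 and 1.68 CPM in E0 and at 2.42 and 2.75 CPM in E2. The lower E2 library lay just under the higher E0 library, so the groups overlapped, and the log2 difference of 0.34 ± 0.23 SE had an interval from -0.20 to 0.88 (edgeR adjusted p = 0.296). Ly6e stood at 301 and 325 CPM in E0 and at 1122 and 1097 CPM in E2. Replicates lay close together in both groups, and the level was 3.55-fold higher in E2 (log2 change 1.83 ± 0.11 SE, 95% interval 1.59 to 2.07, edgeR adjusted p = 1.41e-05).

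**Figure D2:**
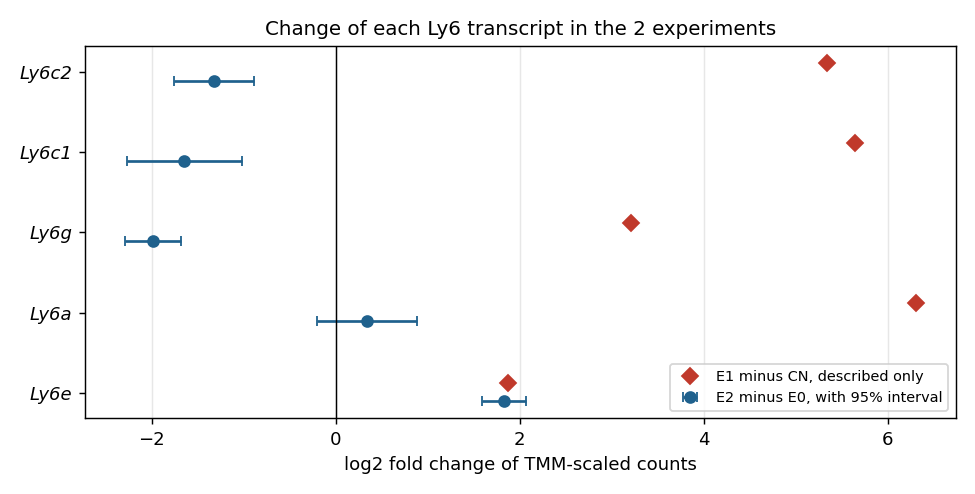
Log2 fold change of each Ly6 gene, as diamonds for E1 minus CN, which is a description since it chose the genes, and as circles with 95% intervals for E2 minus E0, which was tested. All diamonds lie right of 0, whereas the circles of Ly6c2, Ly6c1 and Ly6g lie left of 0, that of Ly6a has an interval across 0, and that of Ly6e lies at 1.83.

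Across the 4 groups the order of levels differed between members. Means of Ly6c2 were 3999 ± 304 CPM in E1, 99.0 ± 8.74 in CN, 45.3 ± 10.9 in E0 and 18.1 ± 3.60 in E2 (SD, n = 2), and no neighbouring groups in that order overlapped. Ly6g had the same order, with 63.2 ± 1.53 CPM in E1, 6.83 ± 0.322 in CN, 5.40 ± 0.805 in E0 and 1.37 ± 0.141 in E2, and again without overlap. For Ly6c1 the order was E1 at 213 ± 52.1 CPM, E0 at 5.98 ± 2.09, CN at 4.26 ± 0.727 and E2 at 1.90 ± 0.119, with the libraries of E0 and CN overlapping. For Ly6a it was E1 at 49.96 ± 8.44 CPM, E2 at 2.58 ± 0.237, E0 at 2.06 ± 0.528 and CN at 0.625 ± 0.204, with E2 and E0 overlapping. For Ly6e it was E1 at 1591 ± 195 CPM, E2 at 1110 ± 18.0, CN at 433 ± 23.2 and E0 at 313 ± 17.1, without overlap. CN and E1 come from another experiment than E0 and E2, so any distance between the experiments cannot be told apart from that between the cytokines. Seen side by side, the E0 mean was 0.457 of the CN mean for Ly6c2, 0.721 for Ly6e, 0.791 for Ly6g, 1.40 for Ly6c1 and 3.29 for Ly6a. The E1 mean was 221 times the E2 mean for Ly6c2 and 1.43 times the E2 mean for Ly6e, the widest and the narrowest ratio among the members.

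Levels of different genes were compared per length, as CPM per kilobase of the reference transcript (RPKM). Of the summed RPKM of the 5 genes, Ly6e made up 61.2% and 56.4% in the CN libraries and Ly6c2 35.0% and 39.4%. In E1 the order was turned, with Ly6c2 at 81.3% and 82.8% and Ly6e at 12.02% and 11.45%. In E0, Ly6e made up 61.9% and 70.7% and Ly6c2 30.3% and 22.7%. In E2, Ly6e made up 94.02% and 94.97% and Ly6c2 4.79% and 3.73%. Ly6e was thus the leading Ly6 transcript per length in 3 of the 4 groups, and Ly6c2 led in E1 alone, at a mean of 4865 RPKM against 697 RPKM for Ly6e. Lengths matter for these levels. Over the union of all annotated exons, a length chosen as an alternative after the data were seen, Ly6c2 in E1 had a mean of 1459 RPKM and Ly6e 420 RPKM. With that length the leading member of each group did not change, while Ly6g moved above Ly6c1 in E0 (5.73 against 3.56 RPKM) and in E2 (1.45 against 1.13 RPKM), where the reference length put Ly6c1 first (7.08 against 5.74 and 2.25 against 1.45 RPKM).

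**Figure D3:**
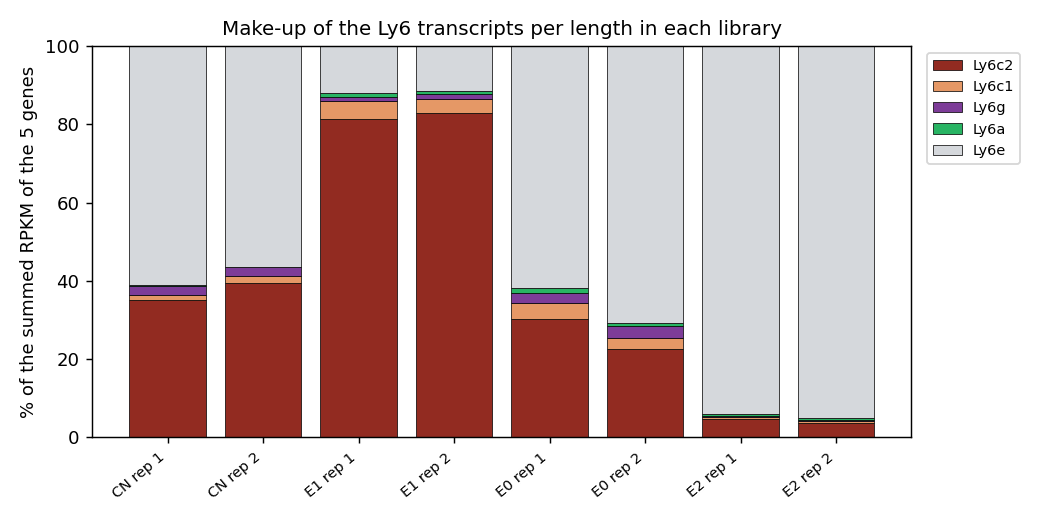
Share of each Ly6 gene, in % of the summed RPKM of the 5 genes, in each of the 8 libraries as stacked bars. Ly6c2 fills 81.3% and 82.8% of the E1 bars, and Ly6e fills 94.02% and 94.97% of the E2 bars.

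How reads were divided between Ly6c2 and Ly6c1 is uncertain, since the genes are near-identical copies. Of the windows of 50 bases in the reference transcript of Ly6c2, 32.6% (252 of 773) also occurred in that of Ly6c1, and 15.8% of windows of 100 bases did. Ly6c1 shared 5.03% of its 50-base windows with Ly6a on the same basis, and 11.1% over all annotated transcripts, where Ly6a shared 15% with Ly6c1, so the counts of Ly6a are uncertain too. Ly6g and Ly6e shared none with the other members. In the deposited counts, Ly6c1 made up 3.87% (exact binomial 95% interval 3.49 to 4.29) and 4.34% (3.93 to 4.77) of the summed Ly6c1 and Ly6c2 counts in CN. In E1 it made up 5.59% (5.52 to 5.66) and 4.44% (4.37 to 4.52), so the share of the second library lay within the interval of the second CN library. In E0 it made up 12.3% (11.3 to 13.4) and 10.7% (9.70 to 11.8), and in E2 8.77% (7.54 to 10.1) and 10.5% (8.87 to 12.2). These intervals cover counting error only. The shares of the second experiment were all above those of the first, and the difference between experiments was not tested. With the counts of both genes summed, the log2 change from E0 to E2 was -1.36 ± 0.19 SE (edgeR adjusted p = 0.00112), and the log2 difference between E1 and CN was 5.35.

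Of 30 other annotated genes with a start within 200 kb of a member's start, 8 had a row in the table. Of these 8, 5 were called higher in E1 than in CN, beside 9.19% of all genes tested. Ly6i, the family gene between Ly6e and Ly6a, was counted 48 and 20 times in CN and 9056 and 6069 times in E1. Its mean went from 0.373 to 95.4 CPM, a log2 change of 7.97 ± 0.31 SE (edgeR adjusted p = 1.04e-06). This change was 8.64 without CN replicate 1 and 7.56 without CN replicate 2. For Ly6i, E2 against E0 gave -0.49 ± 0.34 (edgeR adjusted p = 0.297). I830127L07Rik, annotated as a transcribed pseudogene between Ly6c2 and Ly6g, had means of 47.7 CPM (CN) and 368 CPM (E1), a log2 change of 2.95 ± 0.13 SE (edgeR adjusted p = 2.01e-06). Unlike its neighbours on either side it was not called in E2 against E0, with a log2 difference of 0.16 ± 0.13 SE (edgeR adjusted p = 0.351); the difference from those neighbours was not tested. Over all annotated transcripts it shared 4.35% of its 50-base windows with Gm5960, 2.49% with Ly6a, 2.24% with Ly6i, 0.373% with Ly6c2 and none with Ly6g, Ly6c1 or Ly6e. Among the remaining neighbours, the pseudogenes Gm5960 and Gm6610 and the long noncoding RNA Gm28068 were called higher in E1, with log2 changes of 4.86, 1.37 and 1.59. Gm28068 was also called higher in E2, with a log2 change of 0.75. Ly6d, 2010109I03Rik and Gm29126 were called in neither contrast, at means of at most 1.55 CPM.

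**Figure D4:**
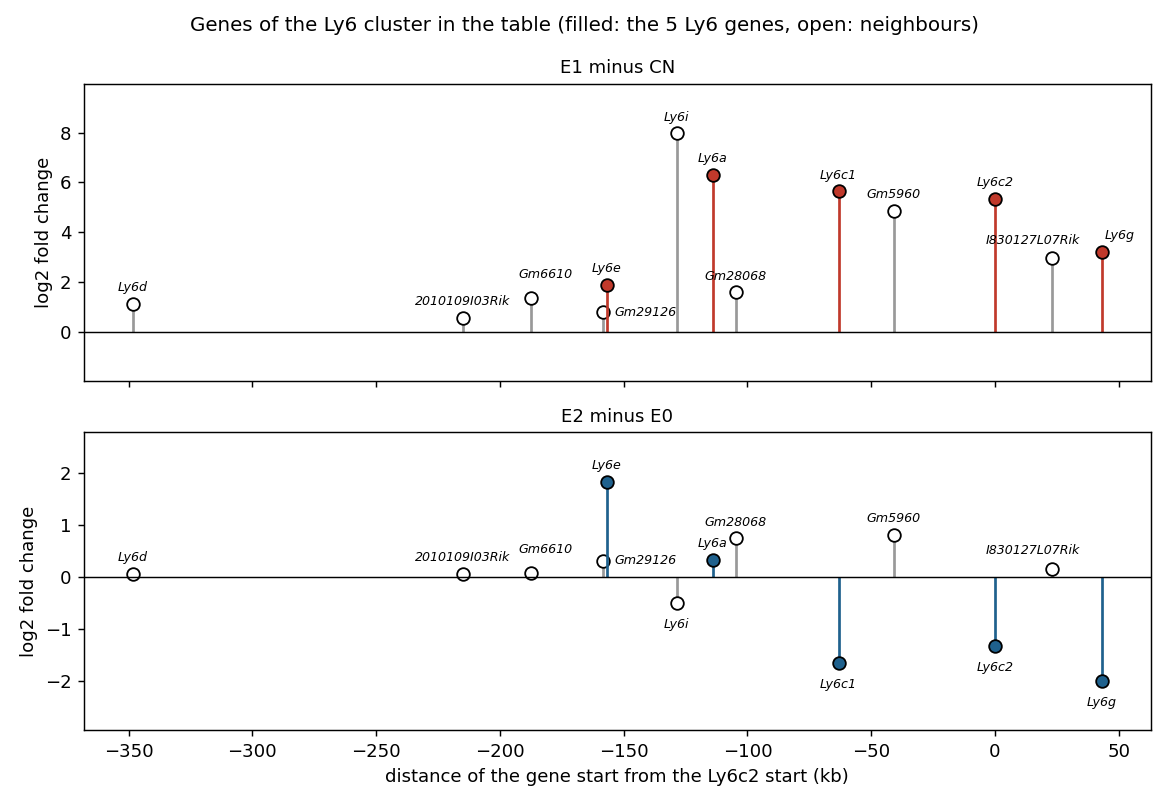
Log2 fold change of the 13 genes of the cluster that had a row, against the distance in kb of each gene's start from the Ly6c2 start, for E1 minus CN (top) and E2 minus E0 (bottom), with members filled and neighbours open. In the top panel every gene lies above 0, with Ly6i highest at 7.97, and in the bottom panel Ly6c1, Ly6c2 and Ly6g lie below -1 while Ly6e lies above 1.

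Profiles over the 8 libraries were compared as the root mean square (RMS) difference of log2 CPM after each gene was centred on its own mean, among 8296 genes that reached 10 CPM in a group; small values mean similar profiles. The libraries fall into 4 groups, so such likeness rests largely on 4 levels. The CN and E1 libraries, whose difference chose the members, are among them, so a high E1 level among the closest genes is not a separate result. Ly6c1, Ly6g and Ly6a themselves reached 10 CPM in E1 alone. Ly6e had the closest partners. Rnf19b, a ubiquitin ligase, differed from it by 0.09 and Tnfrsf14, the receptor HVEM, by 0.09, followed by Slc2a6 at 0.22, Lap3 at 0.24 and Relb, an NF-kappaB subunit, at 0.26. Rnf19b had means of 72.9, 300.2, 59.9 and 203 CPM and Tnfrsf14 means of 42.2, 159, 29.8 and 102 CPM in CN, E1, E0 and E2. For Ly6c2 the closest genes were Ifit1 (0.50), Nos2, the inducible nitric oxide synthase (0.63), Ly6c1 (0.69), Ifit1bl1 (0.69) and Ifit3 (0.82). Outside E1 the means of Ifit1, Ifit1bl1 and Ifit3 were at most 0.271 CPM, down to 0.0059 CPM for Ifit3 in E2. At such levels the distances depend in part on the prior count of 2 that was added before logs were taken. For Ly6c1 they were the complement gene Cfb (0.54), Lgals3bp (0.57), Xaf1 (0.59), Pla2g16 (0.60) and Irgm1 (0.63). For Ly6g they were Ifi27l2a (0.55), Oasl2 (0.56), Scpep1 (0.62), Scpep1os (0.64) and Lgals3bp (0.64). Scpep1os is named as an antisense gene of Scpep1, and without a stated strand setting in the counting their reads cannot be told apart. For Ly6a they were the complement gene C4b (0.53), Oas2 (0.63), Acod1, which makes itaconate (0.64), Tpst1 (0.68) and Calhm6 (0.71). Among the members, Ly6c2 and Ly6c1 were most alike (0.69) and Ly6c2 and Ly6e least alike (2.60).

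Other genes of the LU-domain family did not share 1 direction. Of 39 listed, 10 had a row; in E1 against CN 3 were called higher, 4 lower and 3 not, with a median log2 change of -0.52. In E2 against E0, 3 were called higher, 1 lower and 6 not, with a median of 0.25. Over all genes tested, 17.3% were called in either direction in E1 and 35.5% in E2. Beside Ly6i, 3 of them reached 10 CPM in a group. Lypd6 had means of 117 CPM in CN and 17.9 CPM in E1 (log2 change -2.71 ± 0.14 SE) and of 58.1 CPM in E0 and 96.6 CPM in E2 (0.73 ± 0.13). Plaur, the urokinase receptor, had means of 163 and 102 CPM in CN and E1 (-0.68 ± 0.07) and of 94.9 and 251 CPM in E0 and E2 (1.40 ± 0.07). Cd177, a neutrophil surface protein, had means of 26.1 and 4.33 CPM in CN and E1 (-2.59 ± 0.25) and was not called in E2 against E0 (0.35 ± 0.23, adjusted p = 0.281), where leaving out 1 library gave 0.02 to 0.71. All 3 were thus lower in E1, where Ly6i was higher.

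Few of the genes that build and attach the GPI anchor passed the test in E1. Of 29 with a row, 1 was called higher and 1 lower against CN, with a median log2 change of -0.01. Over all genes tested, 9.19% were called higher and 8.08% lower in this contrast. The higher one was Pgap1, an inositol deacylase that remodels the anchor, from 6.00 to 23.3 CPM (log2 change 1.95 ± 0.29 SE, adjusted p = 0.00208), and the lower one was Pigs, a transamidase subunit (-0.30 ± 0.07). In E2 against E0, 6 were called higher and 6 lower, with a median of 0.08, beside 17% higher and 18.5% lower over all genes tested. Among those with at least 10 CPM in a group, the largest rises were those of Pgap2 (0.51), Piga (0.46) and Pigu (0.45), and the largest falls those of Pigb (-1.08), Pgap1 (-1.05) and Pigl (-0.95); below that level, Pigf rose from 2.52 to 5.32 CPM (1.07). Among 14 other GPI-anchored surface proteins, 5 were called higher and 3 lower in E1, with a median of 0.47. Bst2, or tetherin, rose from 13.3 to 108 CPM (3.02 ± 0.15), the endotoxin co-receptor Cd14 from 3.69 to 20.0 CPM (2.44 ± 0.21) and the complement regulator Cd55 from 39.5 to 93.0 CPM (1.24 ± 0.11), while Nt5e, at 3.04 and 0.358 CPM (-3.08 ± 0.28), Mmp25 (-0.43) and Sema7a (-0.32) fell. In E2 against E0, 8 were called higher and 1 lower, with a median of 0.50. Thy1, at 0.334 and 1.85 CPM, rose by 2.46 ± 0.34, Cd55 by 2.10 ± 0.11, Cd52 by 1.05 ± 0.09 and Bst1 by 0.87 ± 0.21 on the log2 scale. The 1 that fell was Vnn3, at 1.17 CPM in E0 and 0.167 CPM in E2 (-2.81 ± 0.45).

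Genes of the pathways that the added cytokines are known to use were counted in the same fit. For all genes tested, 9.19% were called higher and 8.08% lower in E1, and 17% and 18.5% in E2. Of 20 genes of interferon-gamma signalling, 12 were called higher and 1 lower in E1, with a median of 1.12, among them Usp18 (4.31 ± 0.22) and the transcription factor Irf1 (4.23 ± 0.10); Socs3 was the gene that fell (-0.54 ± 0.09). In E2 against E0, 11 were called higher and 4 lower, with a median of 0.44, led by the feedback inhibitors Socs1 (2.54 ± 0.16) and Socs3 (1.49 ± 0.09). All 18 interferon-stimulated genes with a row were called higher in E1, with a median of 5.76; Gbp2 rose from 2.36 to 3286 CPM. In E2 against E0, 4 of these 18 were called higher, 4 lower and 10 not, with a median of -0.18, and Zbp1 rose from 7.31 to 41.2 CPM (2.49 ± 0.09). Of 13 genes of TNF receptor and NF-kappaB signalling, 12 were called higher and 1 was not called in E1, with a median of 1.04, and 9 were called higher and 1 lower in E2, with a median of 1.03. Traf1 (3.40 ± 0.14 in E1 and 3.75 ± 0.14 in E2) and the inhibitor Nfkbia (2.86 ± 0.10 and 3.34 ± 0.10) led this list in both contrasts. Of 15 receptors and signalling genes of the type 2 cytokines, 3 were called higher and 4 lower in E1, with a median of -0.13, and 8 higher and 5 lower in E2, with a median of 0.43. The common gamma chain Il2rg rose in both (2.81 ± 0.10 and 2.66 ± 0.10), and the feedback gene Cish fell by 0.89 in E1 and rose by 1.96 in E2.

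Ly6G and Ly6C mark neutrophils and monocytes, and the levels of other markers of these cells are given beside them. The shares of all genes called were 9.19% higher and 8.08% lower in E1, and 17% and 18.5% in E2. Of 16 neutrophil markers with a row, 9 were called lower and 7 were not called in E1, and 7 were called lower and 9 were not called in E2 (edgeR). Retnlg, 1 of the 9 lower in E1 (edgeR adjusted p = 0.0358), was not called without CN replicate 1 (0.182), without E1 replicate 1 (0.0579) or 2 (0.134), or with only the 4 libraries of the contrast (0.0577). Their summed level was 4116 to 4662 CPM in CN and 2620 to 3268 CPM in E1, so it was lower in the group where Ly6g was highest. It was 3819 to 4605 CPM in E0 and 1668 to 2112 CPM in E2, where Ly6g was lower too. The 3 most abundant were Padi4, Retnlg and S100a9; Retnlg fell by 5.52 ± 0.15 on the log2 scale in E2, from 1163 to 25.4 CPM. Mpo, which early neutrophil precursors make, had means of 0.117 to 5.29 CPM, and Elane had no row. Of 17 monocyte and macrophage markers with a row, 6 were called higher and 7 lower in E1, and 4 higher and 10 lower in E2. Their summed level was 541 to 660 CPM in CN, 821 to 921 CPM in E1, 599 to 764 CPM in E0 and 1069 to 1134 CPM in E2, so the sum was higher in both E1 and E2, whereas the median log2 change of the list was -0.29 in E1 and -0.97 in E2. Csf1r, with the largest rise in level in both contrasts, and Chil3 were then left out after their values were seen. Chil3 rose in E2, from 7.78 to 217 CPM, but was lower in E1, at 4.14 CPM against 11.4 CPM in CN. The other 15 summed to 127 to 192 CPM in CN and 94.0 to 102 CPM in E1. In E0 they summed to 192 to 321 CPM and in E2 to 87.6 to 91.9 CPM. This sum was lower in E1 and in E2, which depends on the choice of the genes left out. Since they were chosen for a rise, a lower sum is no separate result. Apoe weighed on it, with means of 38.5 CPM in CN, 2.04 in E1, 102 in E0 and 2.39 in E2. Csf1r, the most abundant of the 17, had means of 429, 769, 417 and 794 CPM in CN, E1, E0 and E2. Ccr2, which marks Ly6C-high monocytes, had means of 30.6, 16.4, 37.4 and 19.6 CPM in the same order. Its change in E1 was not called (log2 change -0.91 ± 0.26 SE, edgeR adjusted p = 0.0506), while in E2 it was called lower (-0.93 ± 0.26). The list was split in E1, with Ms4a4c (3.87) and Cd14 (2.44) among the 6 called higher and Fn1 (-5.92) and Apoe (-4.24) among the 7 called lower. What part these cells had in the levels of the Ly6 genes was not tested.

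**Figure D5:**
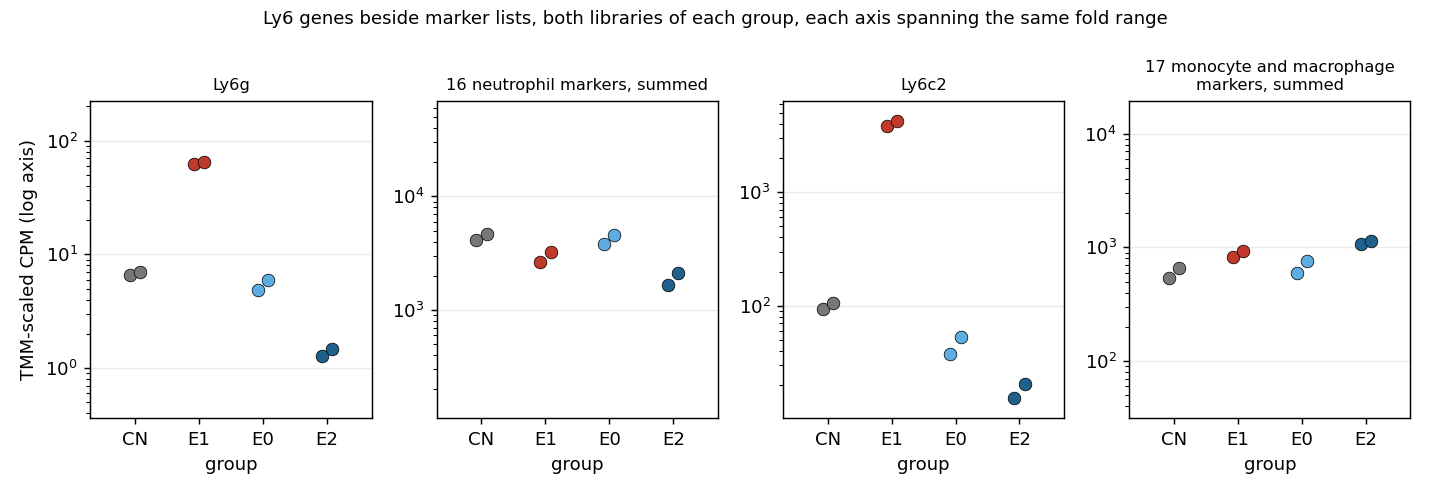
TMM-scaled CPM (log axes that span the same fold range) of Ly6g, of 16 neutrophil markers summed, of Ly6c2 and of 17 monocyte and macrophage markers summed, with 1 point per library. Ly6g is highest in E1, where the neutrophil sum is 2620 to 3268 CPM against 4116 to 4662 CPM in CN, and both are lowest in E2.

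Marker lists of further cell types are given by their sums. Any calls stand beside shares over all genes of 9.19% higher and 8.08% lower in E1, and 17% and 18.5% in E2. T cell markers summed to 4.58 to 7.52 CPM per library, with no row for Cd3e, Cd3g, Cd4, Cd8b1 or Trac. B and plasma cell markers summed to 230 to 270 CPM in E1 and 253 to 257 CPM in CN, most of it Ighm. They summed to 160 to 184 CPM in E2 against 283 to 286 CPM in E0. In that contrast Ighm was called lower (log2 change -1.08), and Ms4a1 (1.06) and Cd79b (0.86) were called higher. NK cell markers summed to 10.7 to 13.4 CPM in E1 and 13.4 to 16.8 CPM in CN, and to 52.8 to 57.5 CPM in E2 against 33.6 to 36.6 CPM in E0. Plasmacytoid dendritic cell markers summed to 180 to 205 CPM in E1 and 126 to 127 CPM in CN; Bst2 was the 1 of 5 called higher. Endothelial markers, mostly Pecam1, summed to 159 to 161 CPM in E1 and 168 to 172 CPM in CN, with no row for Cdh5, Tek, Tie1 or Emcn; Eng, at 2.40 CPM in E1, and Kdr, at 2.76 CPM, were the 2 called higher. Of 6 stem and progenitor markers, which bear on Ly6a, 2 were called higher in E1, Flt3 from 2.56 to 4.47 CPM and Procr from 0.047 to 13.1 CPM, and their sum was 68.3 to 71.1 CPM in E1 against 77.1 to 81.4 CPM in CN. Of 13 eosinophil markers 3 were called lower and 10 were not called in E1, and 4 were called higher and 8 lower in E2; they summed to 10113 to 10613 CPM in CN, 8001 to 9025 in E1, 9313 to 9443 in E0 and 8033 to 8081 in E2.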

How the data were processed

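RNA of 8 eosinophil cultures, 2 in each of 4 groups, was made into stranded mRNA libraries and sequenced. Per the submitters' processing notes, the authors used STAR, featureCounts and the mm10 genome; no source used here gives versions or the strand setting. The authors deposited raw counts per gene. One unnamed row equal to the column sums (100% of named counts) was left out, and 187 of 15917 gene IDs had no symbol in GENCODE vM21, which also gave positions and lengths. Filtering (filterByExpr) removed 4 genes. Counts were scaled by TMM and fitted with edgeR 4.0.16 in R 4.3.3 (quasi-likelihood test, 1 mean per group, all 8 libraries, 4 residual degrees of freedom, adjusted p below 0.05); the fit was tested on simulated data. Library totals were 60809057 to 95065752 counts. DESeq2 1.42.0, limma-voom (limma 3.58.1), other scalings, no filter, only the 4 libraries of a contrast, replicate blocks, summed Ly6c genes and leaving out each library were alternatives. The members and gene lists were chosen with earlier results of these data known. Named genes are all members; per list and contrast up to 3 called genes each way with the largest change and at least 10 CPM in a group, with LU genes over 10 CPM and the 3 most abundant markers; the 5 genes nearest each member in RMS difference (prior count 2); and neighbours within 200 kb. Markers and list genes named beyond these were chosen after their values were seen. One gene that this rule names is not reported here.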

Additional observations from a re-analysis of the deposited data

Results flagged for a closer look

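Ly6a was picked out because its 2 same-numbered comparisons of E2 with E0 pointed opposite ways. The log2 ratio was -0.0084 for the libraries numbered 1, which carried Y-linked transcripts, and 0.7096 for those numbered 2, which carried Xist. The difference between them was not tested. With 1 library of each kind per group, sex and replicate cannot be told apart, and the first ratio lies close to 0. For the other 4 members, both ratios had the same sign in this contrast.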

How the results depend on the processing

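No member changed its call or direction in E2 against E0 under any alternative run. Over these alternatives the log2 change ranged from -1.55 to -1.05 for Ly6c2, -1.97 to -1.24 for Ly6c1 (adjusted p at most 0.0257), -2.13 to -1.82 for Ly6g, 0.09 to 0.62 for Ly6a (adjusted p 0.105 to 0.823) and 1.77 to 1.88 for Ly6e; each of these extreme log2 values came from leaving out 1 library. The described difference between E1 and CN ranged from 5.24 to 5.43 for Ly6c2, 5.35 to 5.87 for Ly6c1, 3.12 to 3.26 for Ly6g, 6.02 to 6.71 for Ly6a and 1.74 to 2.00 for Ly6e. With library totals alone, that of Ly6g was 3.12, the median of all genes in E1 against CN shifted from -0.01 to -0.11, and the share of calls that were higher went from 53.2% to 38.6%. Counts of calls moved more. Genes called higher and lower in E1 numbered 1463 and 1286; with only the 4 libraries of the contrast 775 were lower, and leaving out a library gave 1133 to 1369 and 743 to 1124, lowest without E1 replicate 1 and without CN replicate 1 respectively. In E2 against E0 the counts were 2711 and 2944; leaving out a library gave 1569 to 2858 higher, with 1598 without E0 replicate 1, 1751 without E2 replicate 1 and 1569 without E2 replicate 2, and 1765 to 3079 lower, with 1816 without E2 replicate 1 and 1765 without E2 replicate 2. Leaving out 1 library leaves 1 sample in its group, which is then assumed to vary like the others. The labels do not say that replicate numbers pair samples. Same-numbered libraries shared their sex in every group, and the main fit leaves this difference in the spread. Deviations of same-numbered libraries correlated at 0.50 between CN and E1 and 0.59 between E0 and E2. Between groups of different experiments they correlated at 0.12 to 0.30. A replicate block within each experiment raised the counts to 2786 higher and 2734 lower in E1 and to 4145 higher and 4369 lower in E2, and a block shared by all groups gave 1481, 1361, 2692 and 2894. Neither block changed the call of a member, and the first called Cd177 higher in E2 (log2 change 0.36, adjusted p = 0.00257). For the pseudogene I830127L07Rik, not called in E2 against E0, leaving out E0 replicate 2 turned the log2 difference to -0.01. The lowered calls with fewer libraries come with fewer samples; other causes were not tested.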
